A study of Mus musculus with 16 samples.

Results

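The endothelial genes followed in the cerebral cortex of mice given lipopolysaccharide (LPS), a bacterial cell wall product that provokes systemic inflammation, were the matrix-adhesion pair *Cd93* and *Mmrn2*, the vascular regulators *Egfl7* and *Robo4*, and the transcription factors *Erg*, *Klf2*, *Klf4*, *Sox7*, *Sox17* and *Sox18*. The genes were chosen by name, as endothelial identity factors and vascular integrity genes, with earlier results of these data known. The shares of all genes set beside them are therefore descriptive. They make up 10 of the 55487 genes measured. All 10 genes passed the filter on low values and were among the 18859 genes tested. *Cd93* and *Mmrn2* rose the most after LPS, and *Klf4* and *Sox17* did not pass the test at either time. Tested between times of day, the LPS change of *Cd93*, *Egfl7* and *Sox18* was larger in mice injected and collected in the evening. Lower levels in evening control mice made up 52.5%, 32.1% and 52.9% of these differences. *Robo4* and *Mmrn2* had differences of similar size that did not pass. None of the 10 genes passed the main test between evening and morning LPS mice. The calls of a larger evening change depended on single mice and, for *Cd93* and *Egfl7*, on processing.

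The study asked whether the time of day (TOD) of an inflammatory stimulus alters the response of the brain. Bulk RNA-Seq was done on cortex from 16 male wild-type C57Bl6 mice aged 2 months. They received intraperitoneal LPS at 2 mg/kg, or phosphate-buffered saline (PBS) as control, on a pair of consecutive days at zeitgeber time (ZT) 1, just after lights-on, or ZT13, just after lights-off, and tissue was taken on day 3. Each time had 3 PBS-treated and 5 LPS-treated mice. No gene was altered in any group, and a single strain and sex were used. Since each group was collected at the clock time at which it was injected, time of injection and time of collection cannot be told apart. P-values measure the spread between these mice.

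Levels are given as CPM, the reads on a gene for every 1000000 reads on all genes of that sample, and ± gives the SD between mice. Samples held 20251840 to 29112758 reads on genes, so that 3 reads corresponded to at most 0.148 CPM. Groups follow the sample titles, which another label field contradicts for 12 of the 16 samples. *Gfap*, a marker of reactive astrocytes, was at 111 to 123 CPM in mice titled PBS and 572 to 1134 CPM in mice titled LPS, and *Lcn2*, an acute-phase gene, at 0.0421 to 0.197 and 107 to 418 CPM. These levels bear on the treatment part of the titles and not on the time of day. All 17 endothelial markers examined were expressed, and their summed level was 380 to 384 CPM in ZT1 PBS mice, 506 to 720 in ZT1 LPS mice, 333 to 383 in ZT13 PBS mice and 680 to 760 in ZT13 LPS mice. In whole cortex, more endothelial cells and more RNA per endothelial cell cannot be told apart.

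In vessels, ERG, an ETS-family factor, and the SOXF factors SOX7, SOX17 and SOX18 drive the genes that give endothelial cells their identity. KLF2 and KLF4 are zinc finger factors switched on by steady blood flow, through a kinase cascade that ends on MEF2 factors, and they restrain inflammatory activation of the vessel wall. CD93 is a transmembrane lectin that binds the matrix protein multimerin-2, the product of *Mmrn2*, and helps cells adhere and lay down fibronectin. EGFL7 is secreted into the matrix around vessels, and ROBO4 is an endothelial receptor that counteracts vascular endothelial growth factor and limits leakage.

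Promoter sequence was at hand in the RefSeq table (GRCm38.p6, 250 bases before to 50 after a start) for 5 of the 10 genes. The 250 bases before the start are printed for the 3 with a single listed start. *Klf2* and *Klf4* are sister genes of which *Klf2* was called after LPS and *Klf4* was not, a difference that was not itself tested. *Robo4* is an endothelial receptor gene that rose. Capitals mark the ETS core GGAAG and the MEF2 site CTANNNNTAG, on either strand.
Klf2, chr8:72318812-72319061, plus strand: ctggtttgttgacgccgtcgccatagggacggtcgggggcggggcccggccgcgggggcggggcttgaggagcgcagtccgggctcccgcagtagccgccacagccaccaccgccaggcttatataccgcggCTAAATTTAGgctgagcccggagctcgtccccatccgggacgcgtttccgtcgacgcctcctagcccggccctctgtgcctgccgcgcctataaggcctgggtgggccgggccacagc
Klf4, chr4:55532476-55532725, minus strand: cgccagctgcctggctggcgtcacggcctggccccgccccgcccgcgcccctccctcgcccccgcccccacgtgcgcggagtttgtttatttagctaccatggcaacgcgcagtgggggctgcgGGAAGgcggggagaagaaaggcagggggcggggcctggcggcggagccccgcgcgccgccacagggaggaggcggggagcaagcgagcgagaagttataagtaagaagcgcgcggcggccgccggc
Robo4, chr9:37401722-37401971, plus strand: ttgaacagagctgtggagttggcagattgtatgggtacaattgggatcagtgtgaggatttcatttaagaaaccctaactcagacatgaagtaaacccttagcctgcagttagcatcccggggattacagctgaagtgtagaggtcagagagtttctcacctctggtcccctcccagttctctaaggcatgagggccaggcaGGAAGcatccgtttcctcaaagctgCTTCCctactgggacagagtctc

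The *Klf2* sequence held 1 MEF2 site, 118 bases before the start, and such a site was present in 3.69% of the 32851 promoters of the table. *Klf4* held 1 ETS core, 126 bases before the start, and *Robo4* held 3, at 48 and 23 bases before the start and 38 bases after it. An ETS core was present in 71.4% of promoters, so its presence sets none of these genes apart. The SOX site AACAAT, found in 10.7% of promoters, and the KLF box CACCC, found in 57.5%, were also searched on both strands. None of the 3 genes held the SOX site, while *Klf2* held 1 KLF box and *Robo4* held 2. These are matches of letters and not measured binding.

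*Egfl7* carries in an intron a microRNA precursor, *Mir126a*, whose mature form is abundant in endothelium. It is shown because reads on *Egfl7* do not report it, and its seed (bases 2 to 8) is in capitals.
mmu-miR-126a-3p, chr2:26591402-26591423, plus strand (RefSeq, GRCm38.p6): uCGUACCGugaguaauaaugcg

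The precursor gene was at 0 CPM in every sample and the mature microRNA was not measured by these libraries.

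LPS given at ZT1 raised 8 of the 10 genes, and none was lower. Across all genes tested 11.1% were called higher at an adjusted p under 0.05 (limma, Benjamini-Hochberg). The median log2 fold change of the 10 genes was 0.59, against 0.04 for all genes tested. The same 8 genes had PBS and LPS groups that did not overlap, which held for 15.9% of genes. At ZT13 the 8 genes called higher were the same, with none lower, against 19.2% of all genes, and the median was 0.99 against 0.05. Their groups did not overlap either, against 20.9% of genes. In the plot of levels by mouse, *Klf4* and *Sox17* are the 2 genes whose PBS and LPS mice intermingle at both times.

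**Figure D1:**
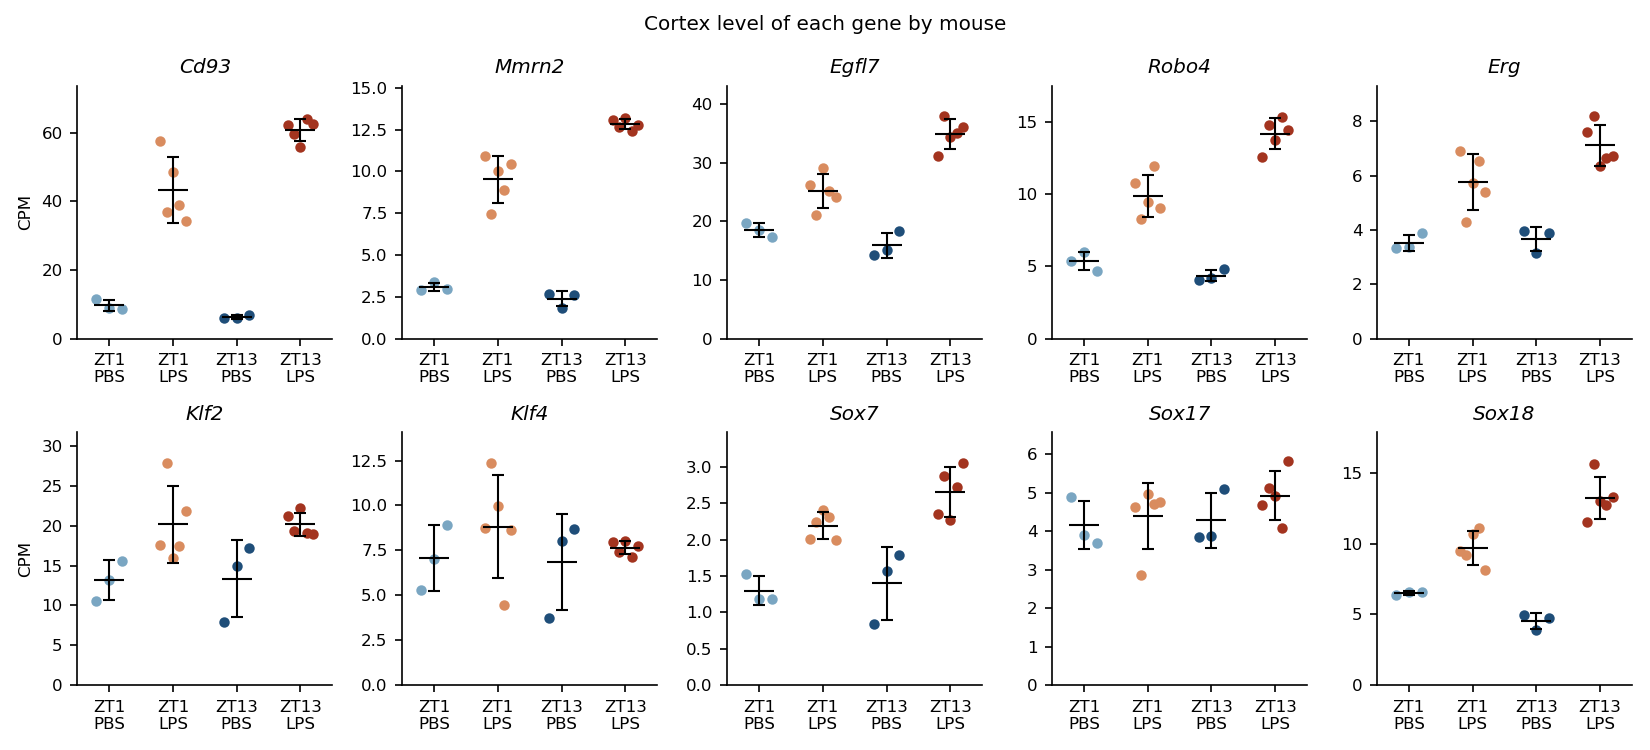
Level of each of the 10 genes (CPM, axis from 0) in every mouse, by time of day and treatment. Points are mice and bars give the mean ± SD of 3 PBS or 5 LPS mice; the LPS mice lie above the PBS mice of the same time for 8 genes, and overlap them for *Klf4* and *Sox17*.

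*Cd93* (ENSMUSG00000027435, chr2:148436640-148443563, minus strand, GRCm38) showed the largest change of the 10 genes at both times. Its level in the 3 ZT1 PBS mice was 11.6, 8.84 and 8.50 CPM, and in the 5 ZT1 LPS mice 57.6, 36.9, 48.7, 39.0 and 34.2 CPM. In the ZT13 PBS mice it was 6.07, 5.92 and 6.90 CPM, and in the ZT13 LPS mice 62.3, 59.6, 55.9, 64.0 and 62.7 CPM. Every LPS mouse was above every PBS mouse, the ZT13 LPS mice were close to each other, and the ZT1 LPS mice were widely spread, with 1 mouse inside the ZT13 range. The log2 fold change was 2.10 (SE 0.16, 4.27-fold, adjusted p = 7.7e-06) at ZT1 and 3.18 (SE 0.064, 9.04-fold, adjusted p = 6.8e-13) at ZT13. CD93 is also made by monocytes and neutrophils. The summed level of 10 neutrophil markers was 0.593 to 1.04 CPM in ZT1 PBS mice, with 3 of the markers at 0 in all of them, and 10.9 to 53.2 in ZT1 LPS mice. It was 0.416 to 1.08 CPM in ZT13 PBS mice, with 4 markers at 0 in all, and 37.3 to 99.2 in ZT13 LPS mice. The 10 monocyte and macrophage markers summed to 7.96 to 11.4 and 14.3 to 37.6 CPM at ZT1, and to 9.91 to 10.7 and 36.7 to 58.2 CPM at ZT13. The part of these cells in the level of *Cd93* was not tested.

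*Mmrn2* (ENSMUSG00000041445, chr14:34375465-34404287, plus strand), the gene of the CD93 ligand, had the next largest change. It was at 2.91, 3.36 and 2.99 CPM in ZT1 PBS mice and at 10.9, 7.43, 10.03, 8.86 and 10.5 CPM in ZT1 LPS mice. ZT13 PBS mice had 2.66, 1.85 and 2.60 CPM, and ZT13 LPS mice 13.1, 12.6, 13.2, 12.4 and 12.8 CPM. No LPS mouse reached down to a PBS mouse, and the ZT13 LPS mice all lay above the ZT1 LPS mice. LPS raised it by 1.48 log2 units (SE 0.13, 2.78-fold, adjusted p = 2.0e-05) at ZT1 and by 2.23 (SE 0.11, 4.68-fold, adjusted p = 3.2e-09) at ZT13.

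None of the partners and relatives of this pair was called lower. Of 12 such genes 10 were tested, 6 were called higher at ZT1 and 9 at ZT13, with medians of 0.60 and 0.88. For the LPS change of this and every later list, 11.1% of all genes were called higher and 5.15% lower at ZT1. At ZT13 the shares were 19.2% and 9.4%. *Msn*, encoding moesin, which links the CD93 tail to actin, rose by 2.01 log2 units at ZT1 and 2.81 at ZT13. *Clec14a*, a lectin of the CD93 family that also binds multimerin-2, rose by 1.29 and 1.89, and *Itga5*, a subunit of the fibronectin receptor, by 1.27 and 2.19. *Fn1*, encoding fibronectin, was called only at ZT13, with values of 0.38 and 0.50. A call at a single time does not show that the times differ, which the interaction tests. The other family lectins on the list were called at ZT13 only, *Cd248*, a mural and stromal cell gene, with values of -0.02 and 0.40, and *Thbd*, encoding thrombomodulin, with 0.18 and 0.41. The EMILIN genes, relatives of *Mmrn2*, rose at both times, *Emilin1* by 0.75 and 1.17 and *Emilin2* by 1.24 and 1.54.

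*Egfl7* (ENSMUSG00000026921, chr2:26580014-26593120, plus strand) was at 19.8, 18.6 and 17.3 CPM in ZT1 PBS mice and 26.2, 21.1, 29.1, 25.2 and 24.1 CPM in ZT1 LPS mice. ZT13 PBS mice had 14.3, 15.1 and 18.4 CPM, and ZT13 LPS mice 31.0, 37.9, 34.3, 35.1 and 36.1 CPM. The gap between PBS and LPS mice was narrow at ZT1 and wide at ZT13. The log2 fold change was 0.42 (SE 0.093, 1.34-fold, adjusted p = 0.0099) at ZT1 and 1.11 (SE 0.082, 2.16-fold, adjusted p = 2.4e-07) at ZT13. The last 64 bases of the gene overlap *Agpat2* on the other strand, which was at 0.980 to 2.79 CPM, and whether counting used strand is not given in the sources used here. A predicted gene, *Gm20532*, overlaps 6482 bases of *Egfl7* on the same strand and was at 0 CPM in every sample. How reads in that stretch were assigned is also not given, and its part in the level of *Egfl7* was not tested.

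Among 12 partners and relatives of *Egfl7*, 10 were tested. At ZT1 2 were higher and none lower, and at ZT13 5 were higher and 3 lower, with medians of 0.07 and 0.25. Of all genes 11.1% were called higher and 5.15% lower at ZT1, and 19.2% and 9.4% at ZT13. *Notch4*, an endothelial receptor that EGFL7 can bind, rose by 1.05 log2 units at ZT1 and 1.40 at ZT13, and *Notch1* by 0.24 and 0.59. *Dll4*, the endothelial Notch ligand, was at -0.36 at ZT1, not called, and rose by 0.83 at ZT13. *Lox*, encoding the collagen and elastin crosslinker that EGFL7 inhibits, was at 0.89 at ZT1, not called, and rose by 1.64 at ZT13. Of the known miR-126 targets on the list, *Spred1* had values of -0.06 and -0.13 and *Pik3r2* of -0.06 and -0.12, both called lower at ZT13 only.

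*Robo4* (ENSMUSG00000032125, chr9:37401897-37415115, plus strand), whose upstream sequence is printed above, was at 5.37, 5.97 and 4.72 CPM in ZT1 PBS mice and 10.8, 8.28, 9.48, 11.9 and 9.02 CPM in ZT1 LPS mice. At ZT13 PBS mice had 4.06, 4.21 and 4.79 CPM and LPS mice 12.6, 14.8, 13.8, 15.3 and 14.5 CPM. PBS and LPS mice did not overlap at either time, and the ZT13 LPS mice were all above the ZT1 LPS mice. The change was 0.82 log2 units (SE 0.12, 1.77-fold, adjusted p = 0.0011) at ZT1 and 1.60 (SE 0.089, 3.03-fold, adjusted p = 1.5e-08) at ZT13.

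The 12 partners and relatives of *Robo4*, most of them not restricted to endothelium, were called lower more often than higher. At ZT1 1 was called higher and 6 lower, and at ZT13 3 were higher and 6 lower, with medians of -0.21 and -0.12, while 5.15% of all genes were called lower at ZT1 and 9.4% at ZT13. *Unc5b*, the vascular receptor that ROBO4 binds, was lower by log2 values of -0.80 at ZT1 and -0.61 at ZT13. *Vegfa*, the growth factor whose signal ROBO4 opposes, was lower by -0.67 and -0.72, *Slit2*, a ligand of the ROBO family, by -0.41 and -0.54, and the sister receptor gene *Robo3* by -0.72 and -0.73. *Pxn*, encoding the adaptor paxillin that binds the ROBO4 tail, rose by 0.42 and 0.77.

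**Figure D2:**
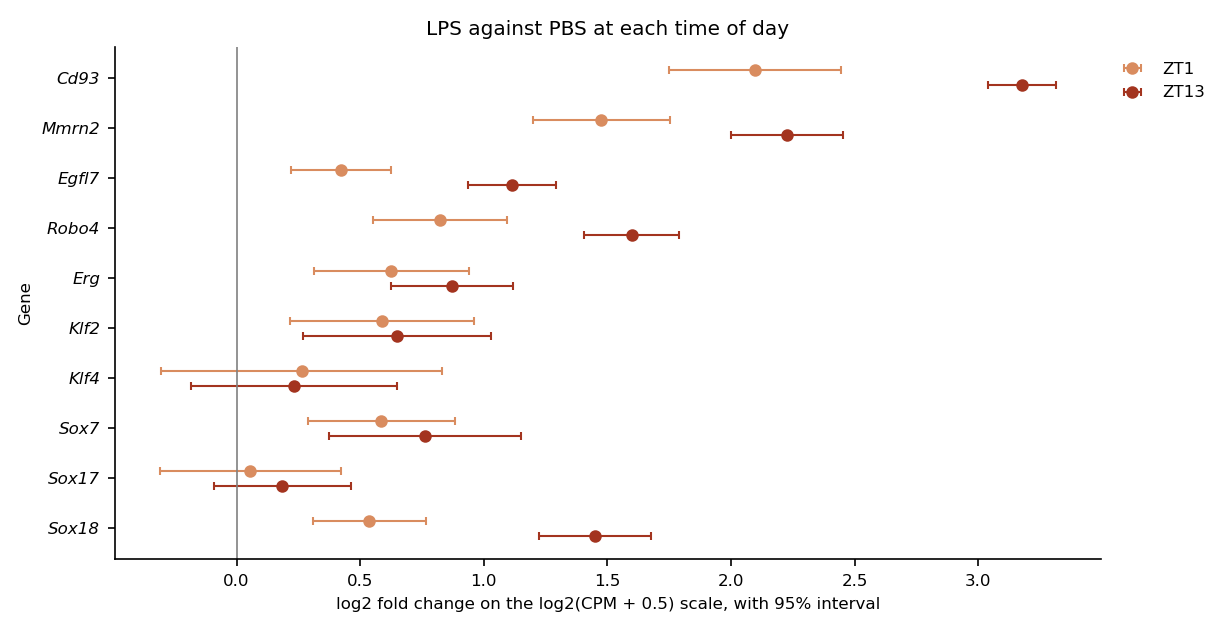
Log2 fold change of LPS against PBS for each gene at ZT1 and at ZT13, on the log2(CPM + 0.5) scale; points are limma estimates and bars 95% intervals. *Cd93* runs from 2.10 at ZT1 to 3.18 at ZT13 and *Mmrn2* from 1.48 to 2.23, while the intervals of *Klf4* and *Sox17* include 0 at both times.

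*Erg* (ENSMUSG00000040732, chr16:95359169-95586593, minus strand), encoding the ETS factor that maintains endothelial identity, was at 3.35 to 3.87 CPM in ZT1 PBS mice and 4.30 to 6.90 in ZT1 LPS mice. It ranged from 3.15 to 3.95 CPM in ZT13 PBS mice and from 6.37 to 8.21 in ZT13 LPS mice. PBS and LPS mice were apart at each time, while the LPS mice of the 2 times overlapped. *Erg* rose by 0.63 log2 units (SE 0.14, adjusted p = 0.012) at ZT1 and 0.87 (SE 0.11, adjusted p = 5.4e-05) at ZT13.

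Of the 3 SOXF genes, *Sox18* and *Sox7* rose after LPS and *Sox17* did not pass the test, a difference between genes that was not itself tested. *Sox18* (ENSMUSG00000046470, chr2:181669836-181671640, minus strand) was at 6.36, 6.57 and 6.61 CPM in ZT1 PBS mice and 9.47, 9.22, 10.7, 11.1 and 8.16 CPM in ZT1 LPS mice. ZT13 PBS mice had 4.93, 3.93 and 4.75 CPM, below all ZT1 PBS mice, and ZT13 LPS mice 11.6, 15.7, 13.04, 12.8 and 13.3 CPM, above all ZT1 LPS mice. The LPS change was 0.54 (SE 0.10, 1.45-fold, adjusted p = 0.0051) at ZT1 and 1.45 (SE 0.11, 2.73-fold, adjusted p = 2.0e-07) at ZT13. *Sox7* (ENSMUSG00000063060, chr14:63943673-63950732, plus strand) was at 1.18 to 1.53 CPM in ZT1 PBS, 1.99 to 2.40 in ZT1 LPS, 0.835 to 1.79 in ZT13 PBS and 2.26 to 3.04 in ZT13 LPS mice. It rose by 0.58 (SE 0.14, adjusted p = 0.013) at ZT1 and 0.76 (SE 0.18, adjusted p = 0.0055) at ZT13.

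*Sox17* (ENSMUSG00000025902, chr1:4490931-4497354, minus strand), which in vessels marks arterial endothelium, did not pass the test. Its levels were 3.69 to 4.88 CPM in ZT1 PBS, 2.86 to 4.97 in ZT1 LPS, 3.84 to 5.11 in ZT13 PBS and 4.09 to 5.82 in ZT13 LPS mice, so the treatments overlapped at each time. The log2 change was 0.06 at ZT1 (95% interval -0.31 to 0.42, adjusted p = 0.87) and 0.19 at ZT13 (-0.09 to 0.46, adjusted p = 0.32). A rise as large as that of *Sox18* at ZT13 lies outside these intervals, but a rise of up to 0.42 at ZT1 and 0.46 at ZT13 does not. The sign of its estimate was negative after quantile normalization at both times. A predicted gene on the other strand that overlaps 804 bases of it was at 0 to 0.306 CPM.

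Among 25 other endothelial transcription factors, 24 were tested. At ZT1 7 were higher and none lower, and at ZT13 18 were higher and 2 lower, with medians of 0.28 and 0.65. *Fli1*, the closest relative of *Erg*, which blood cells and microglia also express, rose by 1.17 log2 units at ZT1 and 1.98 at ZT13. *Bcl6b*, an endothelial repressor, rose by 1.01 and 1.52. *Mef2c* and *Hey1*, the 2 genes called lower at ZT13, had values there of -0.28 and -0.20, and both are also expressed outside endothelium.

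*Klf2* was called higher after LPS and its sister *Klf4* did not pass the test, but the ZT1 call of *Klf2* was lost under 5 of the 10 alternatives that kept all mice. Under 1 of these, with the replicate number as a block, *Klf4* was called at ZT1 (adjusted p = 0.045) and *Klf2* was not (adjusted p = 0.05003). *Klf2* (ENSMUSG00000055148, chr8:72319033-72321656, plus strand) was at 10.6, 13.2 and 15.6 CPM in ZT1 PBS mice and 17.6, 27.8, 16.01, 17.5 and 21.8 CPM in ZT1 LPS mice. ZT13 PBS mice had 7.89, 14.9 and 17.2 CPM, and ZT13 LPS mice 21.2, 19.4, 22.3, 19.1 and 19.0 CPM. The treatments did not overlap, but the gap at ZT1 was small and a single PBS mouse stood low at ZT13. The change was 0.59 (SE 0.17, adjusted p = 0.037) at ZT1 and 0.65 (SE 0.18, adjusted p = 0.014) at ZT13.

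*Klf4* (ENSMUSG00000003032, chr4:55527143-55532466, minus strand) was at 5.28, 7.01 and 8.93 CPM in ZT1 PBS mice and 8.72, 12.4, 9.996, 4.45 and 8.61 CPM in ZT1 LPS mice. In ZT13 PBS mice it was at 3.76, 8.05 and 8.69 CPM and in ZT13 LPS mice at 7.97, 7.43, 8.01, 7.12 and 7.75 CPM. The lowest ZT1 LPS mouse was below every ZT1 PBS mouse, and 2 of the 3 ZT13 PBS mice were above every ZT13 LPS mouse. The estimates were 0.26 (95% interval -0.31 to 0.83, adjusted p = 0.55) and 0.23 (-0.19 to 0.65, adjusted p = 0.42), so that a change as large as that of *Klf2* lies within them. The estimate at ZT13 was -0.12 without the low PBS mouse.

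That mouse, ZT13 PBS replicate 1, was the lowest of its group for 6 of the 10 genes. These were *Klf2*, *Klf4* and *Sox7*, at 7.89, 3.76 and 0.835 CPM, and *Egfl7*, *Robo4* and *Sox17*, at 14.3, 4.06 and 3.84 CPM. For *Sox17* the next mouse was at 3.89 CPM. The mouse was the highest of its group for *Mmrn2*, *Erg* and *Sox18*, at 2.66, 3.95 and 4.93 CPM. The share of all genes for which it was the lowest is not given here, so the count does not set the 10 genes apart. This mouse was also the lowest of the 3 for all 10 of a list of immediate early genes, which neuronal activity and handling raise within minutes. This list was added after the levels of single mice were seen. The list summed to 812 CPM in that mouse, against 1649 and 1898 CPM in the other ZT13 PBS mice. In the ZT1 PBS mice the sum was 1531 to 1987 CPM, in ZT1 LPS mice 933 to 1535, and in ZT13 LPS mice 593 to 1017. Of the 10 genes 9 were tested, and 7 were called lower after LPS at each time and none higher, with *Fos* at -0.86 and -1.12 and *Arc* at -0.83 and -1.10. Without the mouse the ZT13 change of *Klf2* was 0.32 (adjusted p = 0.017) and that of *Sox7* 0.53 (adjusted p = 0.031). The part of these genes in the levels of *Klf2*, *Klf4* and *Sox7* was not tested. The sample description of ZT13 PBS replicate 1 ends in c2 and those of all other mice in c1. What this marks is not given in the sources used here, and its part in these levels was not tested.

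**Figure D3:**
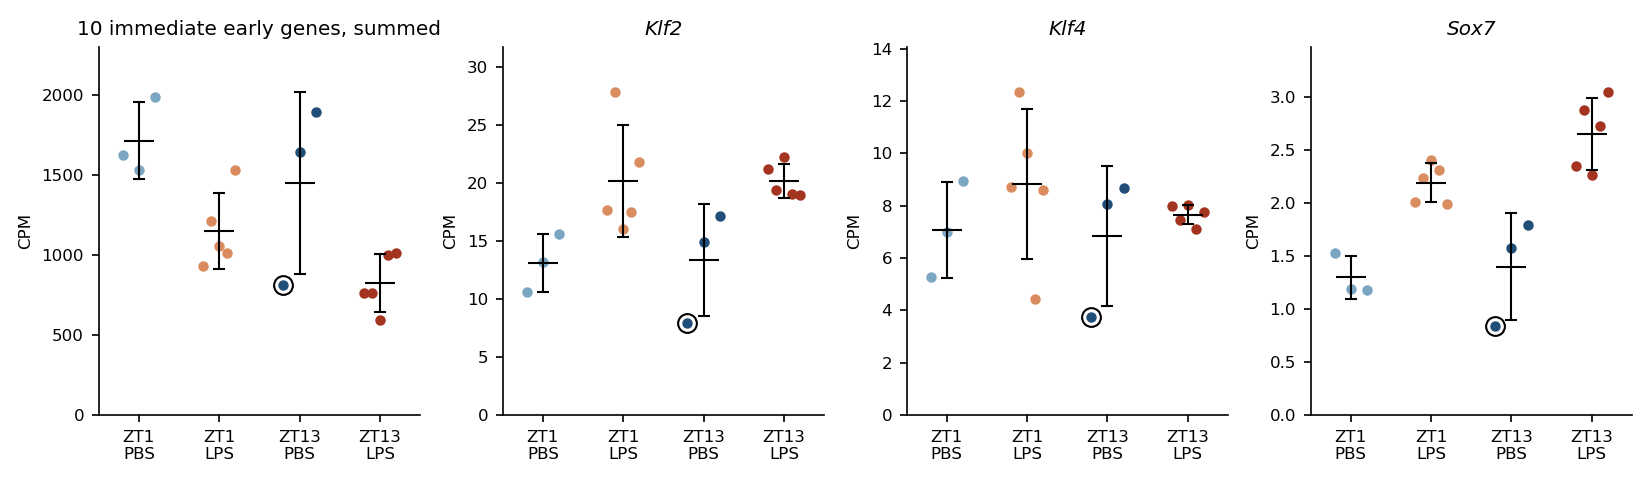
Summed level of 10 immediate early genes and levels of *Klf2*, *Klf4* and *Sox7* (CPM, axes from 0) in every mouse, with mean ± SD. The ringed point is ZT13 PBS replicate 1, at 812 CPM for the summed genes and at 7.89, 3.76 and 0.835 CPM for the others, the lowest of its group in each.

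All 12 genes upstream of KLF2 and KLF4 were tested. At ZT1 3 were higher and none lower, and at ZT13 4 were higher and 1 lower, where 11.1% and 19.2% of all genes were called higher, and the medians were 0.07 and -0.01. The 3 called higher at both times were the following. *Rasip1*, a RAP1 effector, rose by 0.71 and 1.39 log2 units, *Piezo1*, the flow-gated channel, by 0.65 and 0.78, and *Heg1*, the receptor that anchors the cerebral cavernous malformation proteins, by 0.49 and 0.71. *Map3k3*, the kinase at the head of the cascade, was at 0.19 at ZT1, not called, and rose by 0.52 at ZT13. *Krit1*, *Ccm2* and *Pdcd10*, which hold that kinase back, were not called at either time, nor were *Map2k5* and *Mapk7*, the kinases below it.

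Known targets of KLF2 and KLF4 include genes that the factors raise and genes that they restrain, and both kinds were called higher. Of 15 targets 14 were tested, 8 were higher and 1 lower at ZT1, and 10 higher and 1 lower at ZT13, with medians of 0.65 and 0.98. *Nos3*, encoding endothelial nitric oxide synthase, which KLF2 raises, rose by 1.26 and 1.67. Among the restrained genes *Icam1* rose by 2.95 and 3.65, *Sele*, encoding E-selectin, by 1.64 and 1.84, *Vcam1* by 1.51 and 1.55, and *Edn1*, encoding endothelin-1, by 0.84 and 1.56. *S1pr1*, a receptor gene that KLF2 raises and that astrocytes also express, was lower by -0.40 and -0.39.

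Other members of the KLF family went both ways. Of 15 genes 12 were tested, with 5 higher and 2 lower at ZT1, 4 higher and 2 lower at ZT13, and medians of -0.01 and 0.01. *Klf15*, a glucocorticoid-responsive gene, rose by 0.70 and 0.28, and *Klf9* was called higher only at ZT1, at 0.30 and 0.01. *Klf3* rose by 0.23 and 0.50, and *Klf7* was lower by -0.19 and -0.17.

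**Figure D4:**
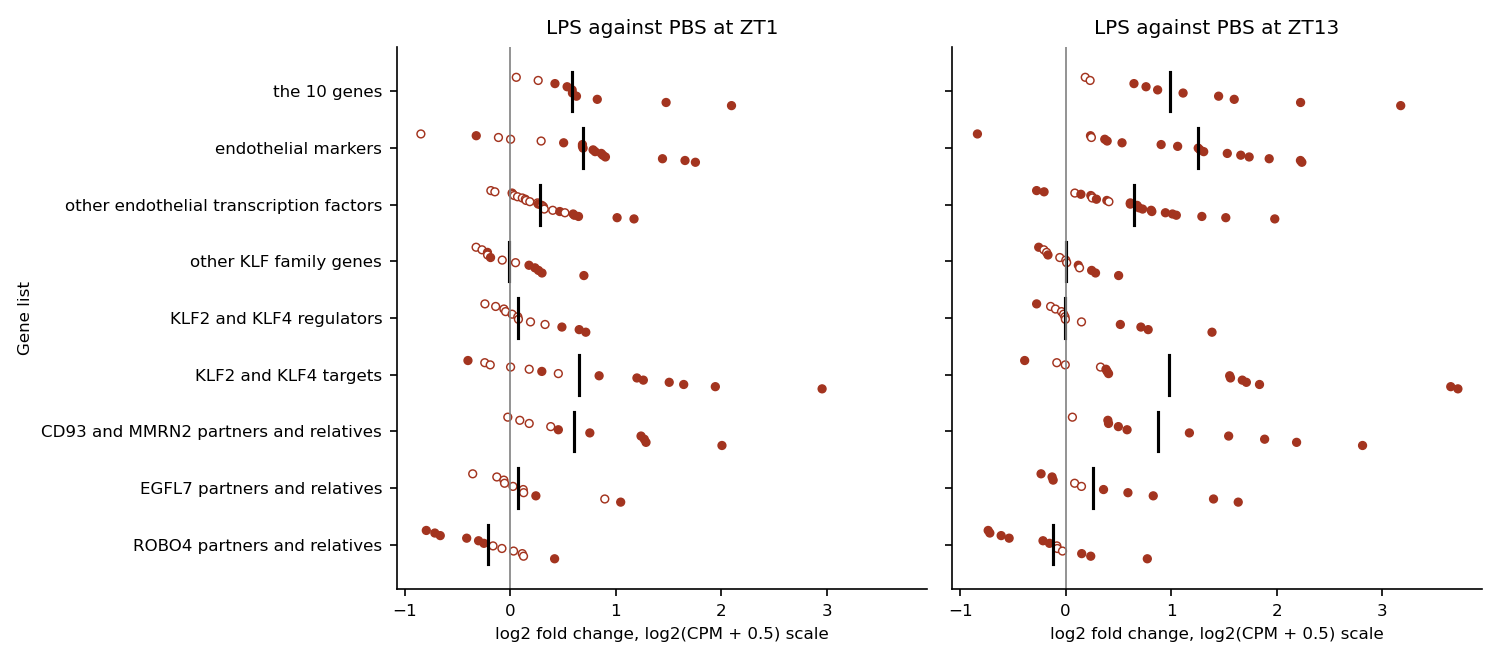
Log2 fold change of LPS against PBS at ZT1 (left) and ZT13 (right) for every tested gene of the 10 genes, of the endothelial markers and of 7 related lists; filled points were called at an adjusted p under 0.05 and black bars are list medians. The medians of the 10 genes are 0.59 and 0.99 and those of the *Robo4* partners -0.21 and -0.12.

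The 17 endothelial markers gave a measure beside which these changes can be set. At ZT1 12 were higher and 1 lower (median 0.69), and at ZT13 15 were higher and 1 lower (median 1.26). *Cd93*, at 2.10 and 3.18, was above the largest values among them, 1.75 for *Vwf* at ZT1 and 2.24 for *Cldn5* at ZT13. *Egfl7*, *Erg*, *Klf2*, *Klf4*, *Sox7* and *Sox17*, 6 of the 10 genes, were below both medians. *Flt1*, encoding a receptor for vascular endothelial growth factor, was called lower at ZT1, at -0.32, and higher at ZT13, at 0.24. *Itm2a* was lower at ZT13 by -0.84. Mural cell markers, from the cells that wrap the vessels, summed to 223 to 244 CPM in ZT1 PBS, 191 to 243 in ZT1 LPS, 200 to 226 in ZT13 PBS and 214 to 260 in ZT13 LPS mice. Of these 10 markers, 2 were higher at ZT1 and 4 at ZT13 (medians 0.03 and 0.28), led by *Kcnj8* at 0.42 and 0.64, and none was lower. The part of a changed share of vessel cells in the levels of the 10 genes was not tested.

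Markers of other cells of the cortex and blood are given for all lists as counts higher and lower, at ZT1 and then at ZT13. Astrocyte markers had 6 and 0, then 5 and 1 of 10. Microglia markers had 6 and 2, then 6 and 3 of 10. Neuron markers had 1 and 2, then 0 and 6 of 10, and oligodendrocyte markers 1 and 3, then 2 and 5 of 10. Of the neutrophil markers 6 passed the filter, 5 of which were higher at ZT1 and 6 at ZT13, led by *S100a9* at 4.07 and 5.63. Of the monocyte and macrophage markers 9 passed, with 7 higher at each time, led by *Chil3* at 2.53 and 4.87. Platelet markers, which could accompany blood left in the vessels, had 3 past the filter, with 0 and then 1 higher. Erythrocyte markers had 5 past it and none called at either time, and lymphocyte markers 2, with *Ighm* lower at -1.07 and -2.21.

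ZT13 LPS mice were then compared with ZT1 LPS mice. None of the 10 genes was called by limma, in either direction, and 0.0212% of all genes were. At an unadjusted p under 0.05, 6 of the 10 were higher, against 7.67% of genes: *Cd93* (log2 0.51, SE 0.11, adjusted p = 0.11), *Mmrn2* (0.42, SE 0.092, adjusted p = 0.11), *Egfl7* (0.47, SE 0.078, adjusted p = 0.072), *Robo4* (0.51, SE 0.094, adjusted p = 0.085), *Sox18* (0.43, SE 0.095, adjusted p = 0.11) and *Erg* (0.29, SE 0.12, adjusted p = 0.39). For 4 of them, *Mmrn2*, *Egfl7*, *Robo4* and *Sox18*, every ZT13 LPS mouse was above every ZT1 LPS mouse, which held for 1.55% of genes tested. The median of the 10 genes was 0.35, against 0.01 for all genes. Of the 10 genes *Cd93*, *Egfl7*, *Robo4* and *Sox18*, were called, 4 in all, when the 16 mice were fitted together. *Cd93*, *Mmrn2*, *Egfl7* and *Robo4* were called with sample quality weights and also without ZT1 LPS replicate 1, and *Egfl7* without ZT1 LPS replicate 2. The share of all genes called under each of these alternatives is not given here, so these calls do not set the 10 genes apart. *Klf2* and *Klf4* had values of 0.03 (95% interval -0.24 to 0.29) and -0.13 (-0.54 to 0.28), *Sox7* 0.22 (-0.01 to 0.46) and *Sox17* 0.16 (-0.13 to 0.46). No endothelial marker was called in this comparison, with a median of 0.25 (3 were in the single fit of 16 mice and 4 with quality weights), nor any gene of the other 7 related lists.

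Among PBS mice no gene of the 10 was called between ZT13 and ZT1 by limma, against 0.52% of all genes. At an unadjusted p under 0.05, 3 were lower at ZT13, against 6.81% of genes: *Cd93* by -0.57 (SE 0.13, adjusted p = 0.10), *Sox18* by -0.48 (SE 0.12, adjusted p = 0.12) and *Egfl7* by -0.22 (SE 0.097, adjusted p = 0.37). The PBS groups did not overlap for *Cd93*, *Mmrn2* and *Sox18*, lower at ZT13, against 9.21% of genes. The median of the 10 genes was -0.16. Of the endothelial markers 3 were lower at ZT13 in PBS mice, among them *Cldn5*, the tight junction gene, at -1.10 and *Kdr*, encoding the main endothelial receptor for vascular endothelial growth factor, at -1.03, and 1, *Slc2a1*, was higher at 0.49. *Dll4* was lower at -1.06, and *Klf15* and *Klf9* were higher at 0.60 and 0.35.

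**Figure D5:**
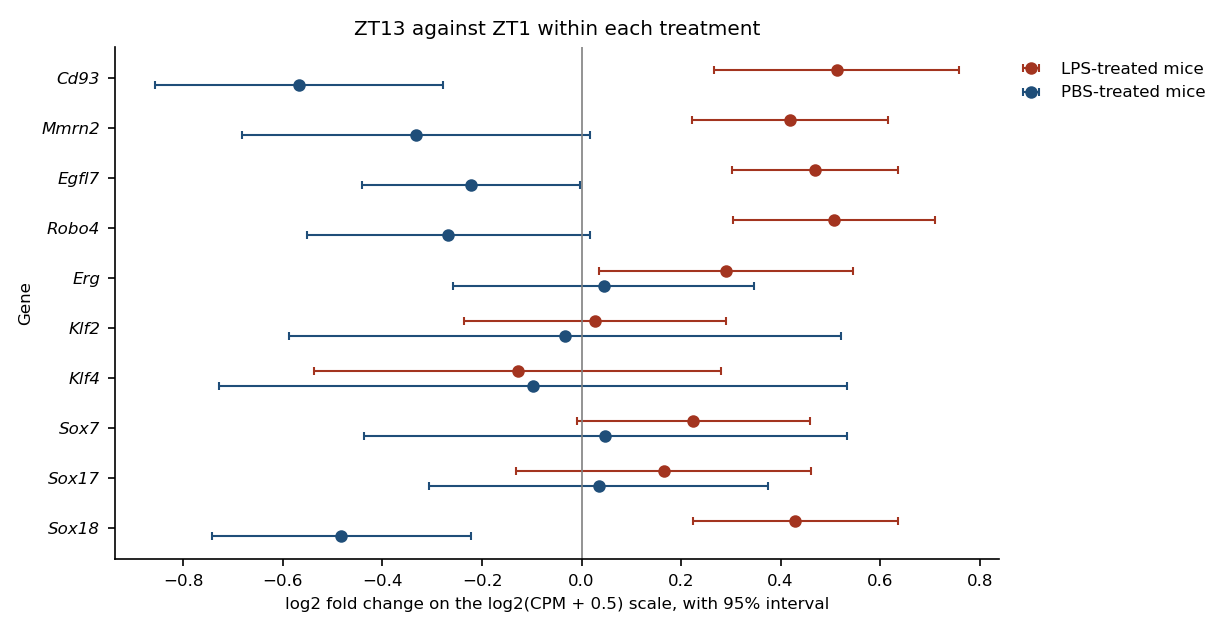
Log2 fold change of ZT13 against ZT1 for each gene in LPS-treated and in PBS-treated mice, on the log2(CPM + 0.5) scale; points are limma estimates and bars 95% intervals. *Cd93* lies at 0.51 in LPS and -0.57 in PBS mice and *Sox18* at 0.43 and -0.48, on opposite sides of 0.

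The TOD × treatment interaction, the LPS change at ZT13 less that at ZT1, was called for 3 of the 10 genes, all with a larger change at ZT13, while 0.122% of all genes were called in that direction. These were *Cd93* (log2 1.08, SE 0.19, adjusted p = 0.019), *Sox18* (0.91, SE 0.15, adjusted p = 0.013) and *Egfl7* (0.69, SE 0.13, adjusted p = 0.041). *Robo4* (0.77, SE 0.15, adjusted p = 0.052) and *Mmrn2* (0.75, SE 0.17, adjusted p = 0.095) had values of similar size that did not pass the test. The interaction uses all the samples of the 2 time comparisons and is their difference, so it splits into a part from LPS mice and a part from PBS mice. The lower level at ZT13 in PBS mice made up 52.5% of the value of *Cd93*, 52.9% of that of *Sox18* and 32.1% of that of *Egfl7*. For *Erg*, *Klf2*, *Sox7* and *Sox17* the estimates were 0.25 (95% interval -0.14 to 0.63), 0.06 (-0.52 to 0.64), 0.18 (-0.29 to 0.65) and 0.13 (-0.33 to 0.59), and for *Klf4* -0.03 (-0.79 to 0.73).

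The calls of the interaction depended on single mice. *Cd93* was lost without ZT1 PBS replicate 1 (adjusted p = 0.082), ZT13 PBS replicate 1 (adjusted p = 0.058) or ZT13 PBS replicate 2 (adjusted p = 0.088), and *Sox18* without ZT1 PBS replicate 2 (adjusted p = 0.052) or 3 (adjusted p = 0.054) or ZT13 PBS replicate 2 (adjusted p = 0.069). *Egfl7* was called in 5 of the 16 fits that left out a mouse. *Robo4* was called without ZT1 LPS replicate 1 or 4 or ZT13 LPS replicate 1, and *Mmrn2* without ZT1 LPS replicate 1. With all mice *Robo4* was also called at a pseudocount of 0.1 (adjusted p = 0.049), with the filter of 5 CPM (adjusted p = 0.04999), with median-of-ratios scaling (adjusted p = 0.047) and, like *Mmrn2* (adjusted p = 0.025), with quality weights (adjusted p = 0.021). *Egfl7* was lost without the filter, without the trend, after quantile normalization and with the replicate block. With all mice kept, *Cd93* was also lost without the filter (adjusted p = 0.096) and without the trend (adjusted p = 0.094), which left only *Sox18* called. The values of *Cd93*, *Egfl7* and *Sox18* themselves stayed positive in all 16 fits that left out a mouse. Of the endothelial markers 6 were called, all with a larger change at ZT13, led by *Kdr* at 1.39 and *Cldn5* at 1.36. Of the 7 related lists the interaction was called for *Dll4*, at 1.19, and for *Mef2c*, at -0.29, which 2 of the lists hold.

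Calls at ZT1 also rested on few PBS mice. *Cd93*, *Mmrn2*, *Robo4* and *Sox18* were called in all 8 fits that left out a mouse. Without ZT1 PBS replicate 2 the count was 5 of 10, with *Erg* (adjusted p = 0.054), *Klf2* (adjusted p = 0.098) and *Sox7* (adjusted p = 0.059) lost. *Erg* and *Klf2* were lost without ZT1 PBS replicate 1, *Egfl7* and *Sox7* without replicate 3, and *Klf2* without ZT1 LPS replicate 5. At ZT13 all 8 genes remained called whichever mouse was left out.

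Compared per kilobase of exon, so that genes can be set beside each other, *Klf2* had the highest mean level of the 10 in every group, from 7.11 ± 1.36 CPM per kb in ZT1 PBS to 10.9 ± 0.80 in ZT13 LPS mice, and *Sox7* the lowest, from 0.393 ± 0.061 to 0.804 ± 0.10. *Klf2* overlapped *Egfl7*, the next gene, in both ZT13 groups, and *Sox7* overlapped the gene above it in every group but ZT1 PBS. In ZT1 PBS mice *Egfl7* (5.18 ± 0.34), *Sox18* (4.02 ± 0.082), *Klf4* (2.32 ± 0.60) and *Cd93* (1.44 ± 0.25) followed *Klf2*, and *Klf4* and *Cd93* overlapped. *Erg*, *Robo4*, *Sox17* and *Mmrn2* came next, at 1.02 to 0.776, each overlapping the gene after it except *Mmrn2*, which lay above *Sox7*. In ZT13 LPS mice *Cd93* had reached 9.12 ± 0.48 CPM per kb, overlapping *Egfl7* (9.74 ± 0.71) and *Sox18* (8.19 ± 0.93). *Mmrn2* (3.22 ± 0.076) stood above *Robo4* and *Klf4*.

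The genes most like each of the 10 were found by the root mean square difference of centred log2(CPM + 0.5) over the 16 samples, which share the treatment contrast. *Mmrn2* lay nearest to *Pecam1* (difference 0.14), the endothelial adhesion gene, then to *P2ry6* (0.15) and *Igfbp7* (0.16). *Robo4* lay nearest to *Col4a2* (0.11), a basement membrane collagen gene. *Tgfb1* (0.12) and *Cdh5*, the gene of endothelial cadherin (0.13), came next. *Erg* lay nearest to *Adgrf5* (0.10), then to *Pbxip1* (0.11) and *Dhrs1* (0.11). For *Sox18* the order was *Col4a2* (0.14), *Rhoc* (0.17) and *Irf8* (0.17). For *Sox7* it was *Gata2* (0.17), *Cib1* (0.18) and *Hic1* (0.18), and for *Egfl7* *Myh9*, *H2-K2* and *Sbno2* (each 0.13). The nearest genes of *Cd93* were *C1s1* (0.22), a complement protease gene, *Fcer1g* (0.26), a myeloid Fc receptor gene, and *Stra6* (0.27). Which cells gave these likenesses was not tested. For *Klf2*, *Klf4*, *Sox7* and *Sox17* the nearest gene is also set beside the spread of the gene itself, with no limit for nearness. The nearest genes were *Rasd1* at 0.21 against a spread of 0.41 for *Klf2*, and *Sertad1* at 0.26 against 0.38 for *Klf4*. For *Sox7* it was *Gata2*, at 0.17 against 0.38. For *Sox17* the nearest was *Myrf*, an oligodendrocyte factor gene, at 0.13 against 0.21.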

How the data were processed

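Cortex RNA from 16 mice was sequenced after ribosomal RNA depletion (KAPA RiboErase). Per the submitters' processing notes, bcl2fastq, DRAGEN 4.0.3-8 and the GRCm38 build were used; the gene counter, annotation and strand setting are not given in the sources used here. The authors deposited 1 table of CPM, scaled to 1000000 per sample, from which 287 repeated lines were removed. Whole reads could not be recovered, since only 80.9% to 82.5% of values up to 20 reads were whole at a tolerance of 0.01 read, so no count test was run and depth limits cover counting error only. Coordinates and exon lengths come from GENCODE M21 (GRCm38), which holds 55141 of the 55487 gene identifiers.

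Testing covered the genes that reached 1 CPM in 3 or more samples, on log2(CPM + 0.5), which understates changes of low genes, with limma 3.58.1 (R 4.3.3) and an intensity trend. Each pairwise comparison was fitted on its own groups and the interaction on all samples. P-values were adjusted by Benjamini-Hochberg over all tested genes, with calls at 0.05. The fits were also run on simulated data with the same spread in every group, which does not test them under unequal spread. The titles' replicate numbers were not used as pairs, and residual correlations of same-numbered mice were -0.20 to 0.33 over 20 pairs. Mice with different numbers were not set beside them, so these values cannot decide whether the numbers pair mice. Plots were drawn with matplotlib 3.10.9 under Python 3.11.15.

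The 10 genes and the lists of partners, regulators, targets and cell type markers were chosen with earlier results of these data known. The genes named from a list are the 2 largest called in each direction, and in the partner, regulator and target lists any gene set beside one of the 10. A gene of the target list that this rule names is not reported here. For likeness, the 3 nearest genes were ranked. The alternatives were pseudocounts of 0.1 and 1, no filter, a filter of 5 CPM, median-of-ratios and quantile scaling, a single fit, sample quality weights, no trend, the replicate block, and each mouse left out.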

Additional observations from a re-analysis of the deposited data

Results flagged for a closer look

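*Sox17* in ZT1 LPS replicate 2 was at 2.86 CPM, while the other 4 ZT1 LPS mice were at 4.62 to 4.97 CPM. The gap to the nearest of them was 0.835 of the whole range of the group, above the limit of 0.71 for 5 samples. Such a limit is passed by chance in about 1 in 20 groups, and 1 of the 20 groups of LPS mice examined passed it.

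The LPS change differed between ZT13 and ZT1, by the interaction test, for *Cd93* (log2 1.08, adjusted p = 0.019), *Sox18* (0.91, adjusted p = 0.013) and *Egfl7* (0.69, adjusted p = 0.041). These calls were also lost when single mice were left out, and those of *Cd93* and *Egfl7* under some processing alternatives, as given above.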

How the results depend on the processing

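With all mice, 451 of 485 values of the 10 genes over the alternatives kept their direction and their side of the threshold, 16 lost and 14 gained a call, and 4 changed sign. With a mouse left out, 420 of 480 did so, 25 lost and 9 gained a call, and 26 changed sign. The cause was not tested. Without the filter on low values, which raised the number of genes tested to 38565, 5 genes were called at ZT1 in place of 8, and 1 in the interaction in place of 3. Without the intensity trend the interaction was called for 1 gene, and with sample quality weights for 5. Between ZT13 and ZT1 LPS mice 4 genes, in place of none, were called in the single fit and 4 with quality weights. Leaving out each mouse gave counts of 5 to 8 at ZT1, 0 to 4 between the LPS groups and 0 to 5 for the interaction. The shares of all genes called under the alternatives are not given here, so these counts do not set the 10 genes apart. At ZT1 *Klf2* lost its call without the filter (adjusted p = 0.19), with median-of-ratios (adjusted p = 0.052) or quantile scaling (adjusted p = 0.088) and without the trend (adjusted p = 0.091). At ZT13 it lost its call without the filter (adjusted p = 0.15) and without the trend (adjusted p = 0.063).

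Sign changes concerned estimates that had not passed the test. *Sox17* was at -0.10 at ZT1 and -0.039 at ZT13 after quantile normalization, which moved the median of all genes at ZT13 by -0.11, and the interaction of *Klf4* at 0.079 with quality weights. Over the fits that left out a mouse, *Sox17* ran from -0.016 to 0.18 at ZT1 and *Klf4* from -0.12 to 0.43 at ZT13. Between LPS groups *Klf2* ran from -0.047 to 0.15 and *Klf4* from -0.34 to 0.0042. Between PBS groups *Erg* ran from -0.0062 to 0.14, *Klf2* from -0.24 to 0.29, *Klf4* from -0.30 to 0.26, *Sox7* from -0.11 to 0.28 and *Sox17* from -0.086 to 0.14. For the interaction *Klf2* ran from -0.27 to 0.27, *Klf4* from -0.38 to 0.17 and *Sox7* from -0.059 to 0.33.

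Whether the replicate numbers pair the mice is not known. With the replicate number as a block, 7 of the 10 genes were called at ZT1, 8 at ZT13 and 2 in the interaction. The ZT1 estimate of *Sox17* was then -0.026. At ZT1 the block fit called *Klf4* (log2 0.54, adjusted p = 0.045) and not *Klf2* (0.60, adjusted p = 0.05003) or *Sox7* (0.60, adjusted p = 0.076). Of 1862 counts for the other lists over all alternatives with every mouse, 133 moved by more than 1.5 times, 33 of them without the filter.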
